A study of Mus musculus with 9 samples.

Results

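Genes of innate sensing, 10 in number, are described here in B cells from mouse spleen that the labels call pre-GC, a stage named as coming before the germinal centre, the site where B cells multiply and mutate their antibody genes. The group was defined by gene names, with earlier results of these data known, and holds the Toll-like receptor (TLR) genes Tlr1, Tlr3, Tlr4, Tlr6, Tlr7, Tlr9 and Tlr12, and the accessory genes Cd180, Unc93b1 and Myd88. All 10 were found among the 55536 genes of the deposited count table and among the 12849 genes of the deposited log2 table, so every one was counted and tested. The study holds 4 WT libraries and 5 libraries of the genotype p52Ki, titled p52ki/ki. p52 is the DNA-binding NF-kB subunit made from Nfkb2, and the title of the series pairs it with the transcription factor ETS1. The nature of the knock-in allele, the age of the mice, any immunisation and the sort are not stated in the labels, and nothing in the labels says that libraries came from separate mice. P-values therefore measure the spread between these libraries, which may be partly technical.

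Toll-like receptors bind conserved parts of microbes. TLR1, TLR4 and TLR6 sit on the cell surface and meet lipids and lipopeptides, whereas TLR3, TLR7, TLR9 and, in mice, TLR12 work in endosomes on nucleic acids or, for TLR12, on the parasite protein profilin. UNC93B1 carries the endosomal receptors out of the endoplasmic reticulum, MyD88 is the adaptor that most TLRs signal through, and CD180 is a TLR4-like surface protein of B cells that lacks the signalling domain. B cells use these receptors beside the B cell receptor to divide, switch class and form antibody-secreting cells, and the pathway ends in NF-kB.

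WT libraries held 7368604 to 7937579 counts over all genes and p52Ki libraries 4492160 to 6647650. A count was seen for 14033 to 14793 genes in WT and for 15504 to 16634 in p52Ki, so the deeper WT libraries detected fewer genes. All 7 B cell markers examined were counted in every library, with a summed level of 9917 to 11131 CPM (counts scaled to the size of the library) in WT and 11276 to 14805 CPM in p52Ki. Germinal centre B cell markers (8 genes) summed to 2807 to 3688 CPM in WT and to 761 to 1664 CPM in p52Ki. Of markers of other spleen cells, 12 for macrophages and monocytes summed to 44.5 to 158 CPM in WT and 111 to 226 CPM in p52Ki, with Vsig4 at 0 in every library and Itgam, Mertk and Fcgr1 at 0 in WT. In p52Ki Itgam, Mertk and Fcgr1 had 27, 71 and 14 counts in total, found in 4, 3 and 1 libraries. Within that list Lyz2 (7.52 ± 4.17 and 28.5 ± 21.5 CPM, edgeR adjusted p = 0.0685) and Ly6c2 (3.53 ± 2.69 and 26.4 ± 10.3 CPM, edgeR adjusted p = 0.0577) were above WT in all 5 p52Ki libraries, as were 7.30% of all genes tested by edgeR. Csf1r, Adgre1, Cd68, C1qa, C1qb and C1qc had log2 fold changes from -0.39 to 0.28. Of the 12, 8 were tested by edgeR and 0 called (median log2 fold change 0.11), and DESeq2 called 3 higher (8.20% of all genes). Those of dendritic cells (10 genes) summed to 88.3 to 121 and 41.5 to 83.2 CPM. Most of that sum was Flt3 (58.5 ± 10.3 and 21.6 ± 9.59 CPM, edgeR adjusted p = 0.0266) and Pacsin1 (46.5 ± 4.26 and 31.0 ± 13.1 CPM, edgeR adjusted p = 0.322). Of the 10 genes, 4 had 0 counts in every WT library, among them Itgax (0 to 5.29 CPM in p52Ki) and Siglech (0 to 6.52 CPM). In p52Ki 1 gene, Xcr1, had 0 counts throughout. Markers of T and NK cells (8 genes) summed to at most 8.53 and 18.2 CPM, and those of neutrophils (6 genes) to at most 3.32 and 0 CPM. The part of these cells and of the detection gap in the results was not tested, and in bulk RNA fewer cells of a type and less RNA per cell cannot be told apart.

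The promoters of Tlr12 and Myd88 are shown because these are the members found in 1 genotype only and below WT in every p52Ki library, respectively. Each runs from 250 bases before to 50 after the RefSeq start of transcription, 5′ to 3′ on the gene's own strand, on GRCm38.p6. Capitals mark matches, on either strand, to GGAAG, the core bound by ETS factors, or to a loose form of the NF-kB site (GGG, any 5 bases, then CC). The windows are chr4:128618570-128618869 for Tlr12 and chr9:119339969-119340268 for Myd88, both on the minus strand. In the annotation used for gene positions (GENCODE M21) Myd88 spans 119335934 to 119341411, so its window lies inside that gene and not at its 5′ end.
Tlr12: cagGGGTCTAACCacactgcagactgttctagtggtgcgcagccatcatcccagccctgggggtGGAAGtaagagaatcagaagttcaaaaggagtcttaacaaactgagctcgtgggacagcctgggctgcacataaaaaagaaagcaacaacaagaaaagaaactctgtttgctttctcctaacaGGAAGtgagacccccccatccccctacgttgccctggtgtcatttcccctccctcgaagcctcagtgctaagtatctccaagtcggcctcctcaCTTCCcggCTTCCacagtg
Myd88: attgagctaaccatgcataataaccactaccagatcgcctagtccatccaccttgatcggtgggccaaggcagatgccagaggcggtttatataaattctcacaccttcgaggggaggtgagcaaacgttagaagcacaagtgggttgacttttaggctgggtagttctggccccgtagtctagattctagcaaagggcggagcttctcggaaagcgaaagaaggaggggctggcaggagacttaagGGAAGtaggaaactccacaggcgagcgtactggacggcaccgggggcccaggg
The Tlr12 window held GGAAG 4 times and the loose NF-kB form 1 time, and the Myd88 window held them 1 and 0 times, with no overlap between the motifs in either. Of 32851 mouse promoters of this length, 71.4% held GGAAG and 50.8% held the loose NF-kB form, so these matches are common. Promoters of 7 of the 10 genes were matched, without Tlr4, Tlr7 and Unc93b1.

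Of the 10 genes, 2 rose in p52Ki and 0 fell, against 8.53% of all 12849 genes tested (4.49% higher and 4.04% lower). These were Unc93b1 and Tlr12. At an unadjusted p under 0.05, 3 genes were higher and 1 was lower (edgeR), against 21.4% of genes tested (10.8% higher and 10.6% lower). The additional ones were Cd180 and Myd88, and these were the same additional calls that DESeq2 made (3 higher and 1 lower, where it called 13.6% of genes, 8.20% higher and 5.43% lower). The median log2 fold change of the 10 was 0.71 beside 0.03 over all genes tested. The genotypes did not overlap in 3 genes (Unc93b1, Tlr12 and Myd88), against 13.8% of genes tested (7.30% with p52Ki above and 6.53% with p52Ki below). Of all calls 577 were higher and 519 lower in p52Ki (52.6% higher). With an offset for GC content and transcript length the split was 457 and 997 (31.4% higher; 11.3% of genes called, 3.56% higher and 7.76% lower), the median of all genes moved from 0.03 to -0.14, and Unc93b1, Tlr12 and also Myd88 were called.

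**Figure D1:**
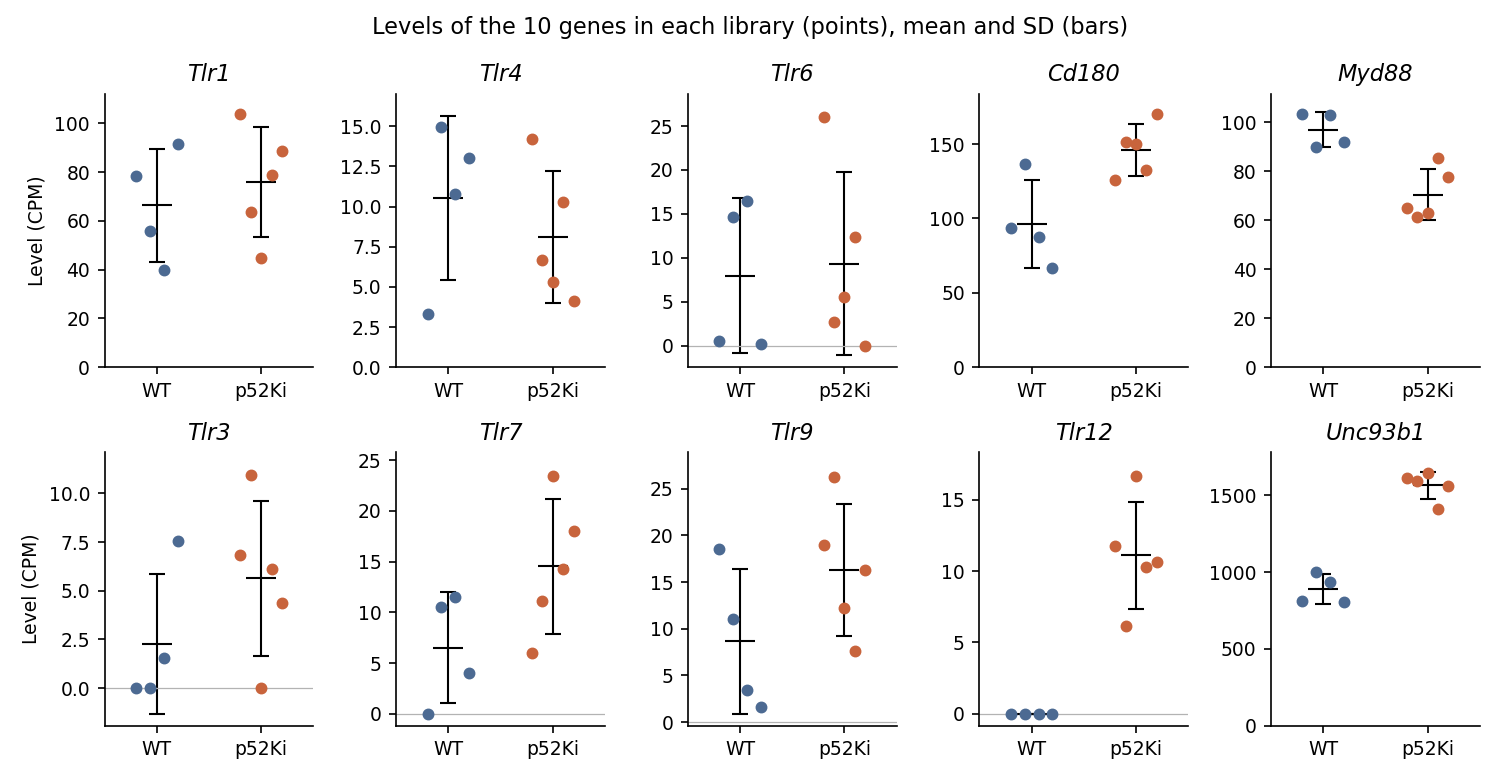
Level of each gene in CPM (y axis, which includes 0) in the 4 WT and 5 p52Ki libraries (points), with mean and SD (bars). Unc93b1 and Tlr12 lie higher in all 5 p52Ki libraries, Myd88 lies lower in all 5, and the points of the other genes overlap.

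Among the endosomal receptors, Tlr12 (chromosome 4, 128615443 to 128618619, a single exon of 3177 bases) was counted only in p52Ki. It had 0 counts in each of the 4 WT libraries and 81, 35, 103, 67 and 49 counts in p52Ki replicates 1 to 5, or 11.8, 6.17, 16.6, 10.3 and 10.6 CPM. The WT libraries, all at 0, held more counts in total but detected fewer genes than the p52Ki libraries, and the part of this gap was not tested. Against a floor of 3 counts over the 4 WT libraries (0.102 CPM, counting error only), the p52Ki mean of 11.1 ± 3.75 CPM (SD, n = 5) was at least 109-fold higher (edgeR adjusted p = 0.00265). Tlr12 was 1 of 46 genes (0.358% of those tested) with 0 counts in every WT library and a count in every p52Ki library, whereas 1 gene (0.00778%) showed the reverse. Such genes passed the filter on low counts only through the genotype that held their counts, so their p-values and shares carry that selection. More genes of any kind were detected in p52Ki, and the part of this wider detection was not tested. In a gene of a single exon, reads of spliced and unspliced RNA cannot be told apart. Its partner Tlr11, which forms a heterodimer with TLR12 to sense profilin, had 0 counts in all 9 libraries.

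Tlr7 (chromosome X, 167304929 to 167330558), a sensor of single-stranded RNA, had 0, 10.5, 11.5 and 3.98 CPM in the WT libraries, replicates in order, against 5.95, 11.1, 23.4, 14.2 and 18.0 CPM in the p52Ki libraries. Only 3 p52Ki libraries lay above all WT libraries, and the means of 6.50 ± 5.47 and 14.6 ± 6.64 CPM did not differ beyond this spread (log2 fold change 1.16 ± 0.93, SE, edgeR adjusted p = 0.534). Tlr9 (chromosome 9, 106222598 to 106226883), the sensor of unmethylated CpG DNA, was at 18.5, 11.1, 3.41 and 1.59 CPM in WT and at 19.02, 26.3, 12.3, 7.66 and 16.3 CPM in p52Ki. WT replicates 1 and 2 lay within the p52Ki range, and the means were 8.64 ± 7.75 and 16.3 ± 7.03 CPM (0.91 ± 0.67, edgeR adjusted p = 0.489). The log2 fold change was 1.6004 without WT replicate 1 (edgeR adjusted p = 0.215) and 0.59 without WT replicate 4 (edgeR adjusted p = 0.665), with no call in either. Tlr3 (chromosome 8, 45395665 to 45411080), which binds double-stranded RNA and uses TRIF in place of MyD88, was at 0, 0, 1.56 and 7.57 CPM in WT and at 6.82, 10.9, 0, 6.13 and 4.35 CPM in p52Ki. Both genotypes thus held libraries with no count of it, and the means were 2.28 ± 3.60 and 5.65 ± 3.97 CPM (1.30 ± 1.52, edgeR adjusted p = 0.705). Its log2 fold change ran from 0.88 without WT replicate 1 or 2 to 3.42 without WT replicate 4.

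No single gene of these 3 separated the genotypes, but their sum did. Per kilobase of exons, the summed level of Tlr3, Tlr7 and Tlr9 was 5.32, 5.76, 4.10 and 2.89 CPM in the WT libraries against 8.24, 12.4, 9.27, 6.87 and 9.94 CPM in the p52Ki libraries. Every p52Ki library lay above every WT library, with means of 4.52 ± 1.29 and 9.34 ± 2.06 CPM per kilobase. With Tlr12 added, the p52Ki libraries spanned 10.1 to 14.5. These sums were chosen after the values were seen and are given without a test. Endosomal receptors made up 8.84 to 19.8% of the summed level of the 7 receptors in WT and 22.8 to 47.8% in p52Ki. This separation needed Tlr12: Tlr3, Tlr7 and Tlr9 alone made up 15.7 to 35.1% in p52Ki, with p52Ki replicates 1 (15.7%) and 4 (17.7%) inside the WT range.

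**Figure D2:**
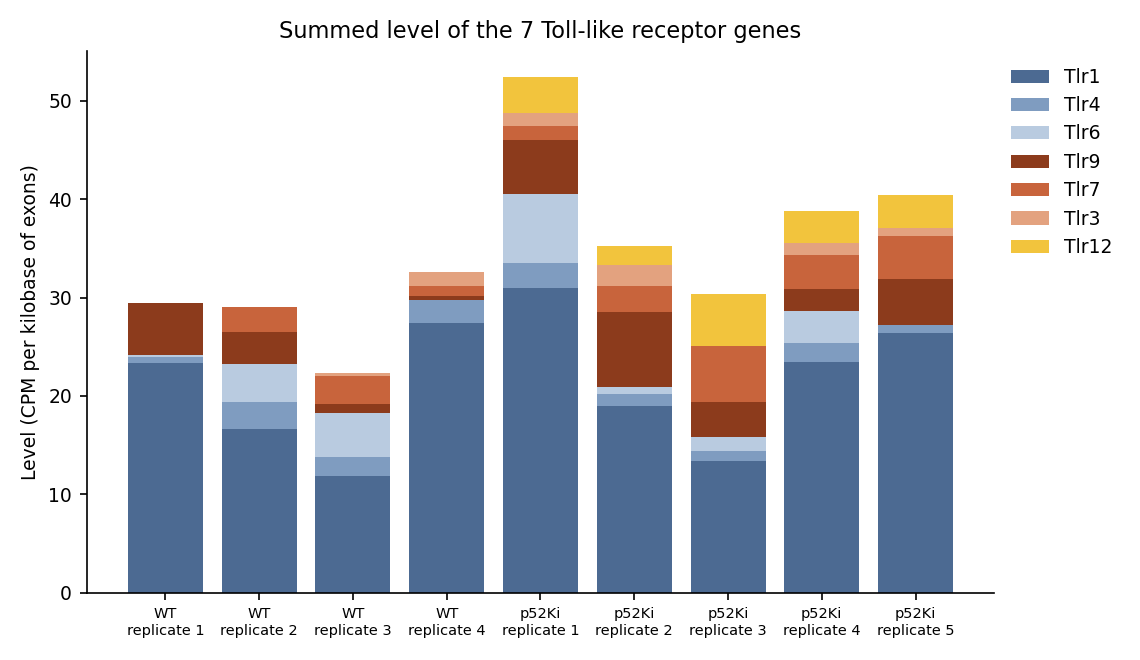
Stacked level of the 7 receptor genes in CPM per kilobase of exons (y axis, from 0) in each library (x axis), surface receptors in blue, Tlr9, Tlr7 and Tlr3 in browns and Tlr12 in yellow. Tlr1 forms the largest block in every library, from 44.2 to 83.9% of the sum, and yellow is present in the 5 p52Ki libraries only.

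Unc93b1 (chromosome 19, 3935186 to 3949340), the carrier of these endosomal receptors, was the most abundant of the 10 genes and the one with the smallest spread relative to its mean in p52Ki. The WT libraries held 810.5, 1001, 937 and 804 CPM, and the p52Ki libraries held 1613, 1590, 1645, 1413 and 1559 CPM. The lowest p52Ki library lay well above the highest WT library, and the mean rose from 888 ± 96.9 to 1564 ± 89.8 CPM (1.76-fold, log2 fold change 0.82 ± 0.11, edgeR adjusted p = 0.00249). The call held in each fit without 1 library (edgeR adjusted p from 0.00137 to 0.00867), as did that of Tlr12 (edgeR adjusted p from 0.0038 to 0.0101).

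Among the surface receptors no call was made (edgeR). Tlr1 (chromosome 5, 64924679 to 64933563), which pairs with TLR2 on triacylated lipopeptides, was at 78.2, 55.7, 39.7 and 91.6 CPM in WT and at 104, 63.7, 44.9, 78.6 and 88.4 CPM in p52Ki. Its range was wide in both genotypes and nearly the same, with means of 66.3 ± 23.1 and 75.8 ± 22.6 CPM (0.19 ± 0.29, edgeR adjusted p = 0.787). Tlr6 (chromosome 5, 64952031 to 64960097), its neighbour, which pairs with TLR2 on diacylated lipopeptides, was at 0.525, 14.7, 16.5 and 0.133 CPM in WT and at 26.0, 2.65, 5.49, 12.4 and 0 CPM in p52Ki. Libraries of 1 genotype thus ranged from 1 to 116 counts in WT and from 0 to 179 counts in p52Ki, with means of 7.95 ± 8.84 and 9.31 ± 10.4 CPM (0.23 ± 1.32, edgeR adjusted p = 0.952). The direction turned without WT replicate 1 (-0.16), WT replicate 4 (-0.15) or p52Ki replicate 1 (-0.62). In WT the libraries highest in Tlr1 were the lowest in Tlr6, a relation that p52Ki replicate 1, highest in both, did not show. Of the 75-base stretches in Tlr1 transcripts, 10.3% also occur in those of Tlr6. The reads were longer than these stretches, so their other bases may still tell the genes apart. Sharing at the full length of the reads was not tested. TLR2 itself (Tlr2) had 6.92 CPM in WT replicate 2, 0 in the other WT libraries, and 9.35 to 18.9 CPM in p52Ki. The genotypes did not overlap, but the test did not pass (edgeR adjusted p = 0.252), whereas it passed on limma-trend (adjusted p = 0.0105) and on limma-voom (adjusted p = 0.0380). WT replicate 2 held all 50 WT counts of Tlr2. The fit without it (edgeR adjusted p = 0.00451) thus set p52Ki against 0 counts, which largely fixed its outcome. Tlr2 passed the filter on low counts only with the p52Ki libraries, so its p-values carry that selection.

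Tlr4 (chromosome 4, 66827584 to 66930284), the receptor for lipopolysaccharide, was at 3.28, 14.9, 10.8 and 13.0 CPM in WT and at 14.2, 6.70, 5.33, 10.3 and 4.13 CPM in p52Ki. The 2 sets of values interleaved, with means of 10.5 ± 5.11 and 8.13 ± 4.11 CPM (-0.37 ± 0.58, edgeR adjusted p = 0.796). Its partners on the surface were scarce: Ly96, which encodes MD-2, had means of 3.40 ± 1.87 CPM in WT and 7.51 ± 3.72 CPM in p52Ki (edgeR adjusted p = 0.392). Cd14 had counts in p52Ki replicate 1 alone (49 counts).

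Cd180 (chromosome 13, 102693558 to 102739629) had 93.7, 137, 87.7 and 66.6 CPM in the WT libraries against 126, 152, 149.9, 133 and 170.1 CPM in the p52Ki libraries. WT replicate 2 was the only WT library inside the p52Ki range, and the means of 96.2 ± 29.4 and 146 ± 17.4 CPM did not pass (0.60 ± 0.21, edgeR adjusted p = 0.103). Without WT replicate 2 the log2 fold change was 0.82 and was called (edgeR adjusted p = 0.0297), and DESeq2 called it on all libraries (adjusted p = 0.0333). Ly86 encodes MD-1, the protein that binds CD180 and holds it on the surface. It rose from 208 ± 27.4 to 336 ± 65.2 CPM (0.69 ± 0.17, edgeR adjusted p = 0.0250), with every p52Ki library above every WT library. That call ended without WT replicate 1 (adjusted p = 0.0622), WT replicate 2 (0.0677) or p52Ki replicate 2 (0.0567) and with the GC and length offset (0.0534). Exons of Mast4 on the other strand cover 4.04% of the exon bases of Cd180, and Mast4 itself rose, with 31.6 ± 3.04 CPM in WT and 83.3 ± 9.52 CPM in p52Ki (edgeR adjusted p = 0.00253). The kit does not mark strand, and the part of these reads in the value of Cd180 was not tested.

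Myd88 (chromosome 9, 119335934 to 119341411) was the one member whose p52Ki libraries all lay below WT. The WT libraries held 103, 89.8, 103 and 91.98 CPM, and the p52Ki libraries held 65.0, 61.5, 63.0, 85.3 and 77.8 CPM. The means of 97.1 ± 7.21 and 70.5 ± 10.5 CPM gave a log2 fold change of -0.46 ± 0.17 that did not pass (edgeR adjusted p = 0.134). DESeq2 called it (adjusted p = 0.0495), as did the fit with the GC and length offset (edgeR adjusted p = 0.0476). Exons of Acaa1a on the other strand cover 11.3% of the exon bases of Myd88, and Acaa1a stood at 123 ± 17.6 and 124 ± 10.6 CPM (edgeR adjusted p = 0.981).

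**Figure D3:**
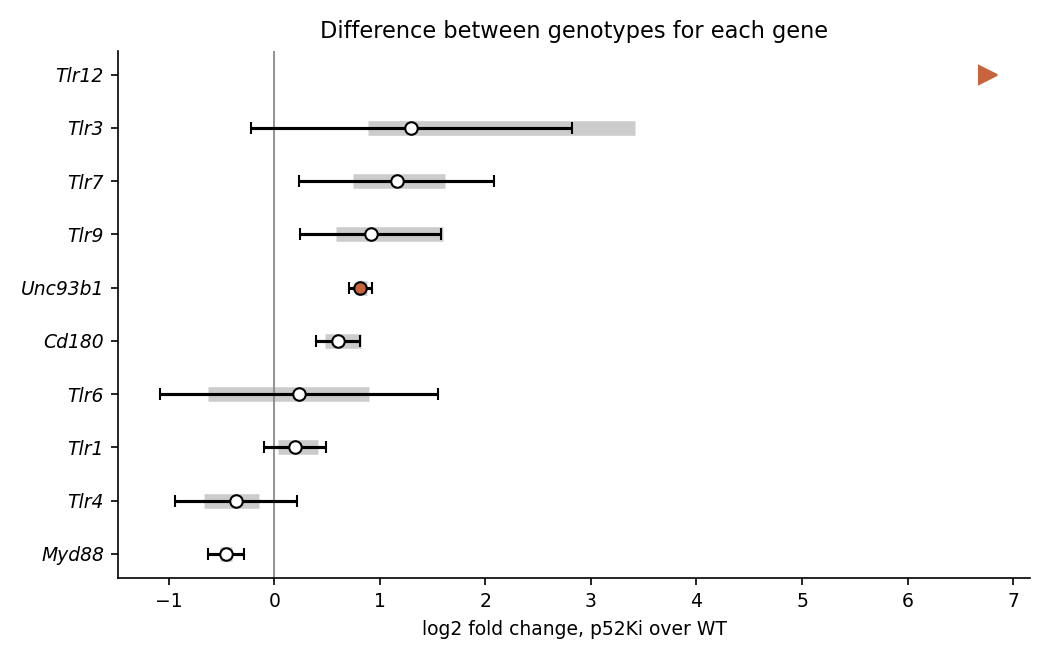
Log2 fold change of p52Ki over WT (x axis) for each gene, with its SE (black bars), filled where called, and the range over the 9 fits without 1 library (grey bands). The arrow of Tlr12 is its lower bound, since WT had 0 counts, and the bands of Tlr3 and Tlr6 are the widest.

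Levels of different genes were compared per kilobase of merged exons. In WT the order was Unc93b1 at 293 ± 32.0, Myd88 at 37.7 ± 2.80, Cd180 at 21.3 ± 6.52 and Tlr1 at 19.8 ± 6.91 CPM per kilobase, followed by Tlr9, Tlr6, Tlr4, Tlr7, Tlr3 and Tlr12 at 2.49 and below. Libraries of neighbouring genes in that order did not overlap from Unc93b1 to Myd88, from Myd88 to Cd180 and from Tlr1 to Tlr9, while all other neighbours overlapped. In p52Ki the order was Unc93b1 at 516 ± 29.6, Cd180 at 32.4 ± 3.85, Myd88 at 27.4 ± 4.07 and Tlr1 at 22.7 ± 6.76 CPM per kilobase, and then Tlr9, Tlr7, Tlr12, Tlr6, Tlr4 and Tlr3 between 4.69 and 1.08. There only Unc93b1 stood apart from the next gene, and Tlr1 from Tlr9. Cd180 thus lay below Myd88 in all 4 WT libraries and above it in 4 of the 5 p52Ki libraries. With the longest transcript as the length, Cd180 lay above Myd88 also in WT replicate 2 (51.6 against 36.5 CPM per kilobase) and in all 5 p52Ki libraries. Tlr1 was the main receptor transcript in both genotypes, and the 6 other receptors had means of at most 4.69 CPM per kilobase.

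Other genes of the pathway were taken from 4 lists. Their counts stand beside the shares over all genes tested. These were 4.49% higher and 4.04% lower by edgeR, 10.8% and 10.6% at an unadjusted p under 0.05, and 8.20% and 5.43% by DESeq2. Of 9 further receptors and surface partners, 3 were tested and 1 rose (Ly86, above). Tlr5, Tlr11 and Lbp had 0 counts throughout, Tlr8 had 7 counts in 1 p52Ki library, and Tlr13 had 33 and 14 counts in 2 p52Ki libraries. The median log2 fold change of the 3 tested was 1.14, and none fell (edgeR, 0 also at an unadjusted p under 0.05 and by DESeq2).

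Of 11 genes of folding, transport and processing, 10 were tested, of which 1 rose and 1 fell (4.49% and 4.04% of all genes tested). Their median log2 fold change was 0.42. At an unadjusted p under 0.05 (edgeR), 5 were higher and 1 lower, against 10.8% and 10.6% of all genes tested. Hsp90b1, the chaperone gp96 that folds most TLRs, rose from 413 ± 58.8 to 859 ± 172 CPM (1.06 ± 0.16, edgeR adjusted p = 0.00414). Its co-chaperone gene Cnpy3 was at 82.3 ± 5.05 and 114 ± 15.7 CPM, with no overlap between genotypes, and did not pass (0.47 ± 0.16, edgeR adjusted p = 0.0987). Lgmn, the asparagine endopeptidase that can cleave TLR9 in endosomes, fell from 603 ± 109 to 296 ± 76.5 CPM (-1.03 ± 0.20, edgeR adjusted p = 0.0100). Ctss, a cathepsin of the same compartments, had 349 ± 32.3 and 455 ± 23.4 CPM (edgeR adjusted p = 0.0643), again with no overlap. 5430427O19Rik had means of 21.4 ± 4.74 CPM in WT and 39.1 ± 14.1 CPM in p52Ki (edgeR adjusted p = 0.131). DESeq2 called 4 of these genes higher and 1 lower (8.20% and 5.43% of all genes).

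Below the receptors, 0 of 17 relay genes rose and 1 fell (edgeR, median log2 fold change 0.16), against 8.53% of all genes called. At an unadjusted p under 0.05, 2 were higher and 1 lower, against 21.4% of all genes. DESeq2 called 1 higher and 1 lower, against 13.6% of all genes. Ticam2, whose product TRAM links TLR4 to TRIF, fell from 23.9 ± 3.57 to 9.22 ± 2.88 CPM (-1.37 ± 0.36, edgeR adjusted p = 0.0381). The call held without p52Ki replicate 2 (adjusted p = 0.04998) and ended without any other single library, at adjusted p up to 0.0997. Irak2, a kinase of the MyD88 complex, had means of 32.5 ± 19.1 CPM in WT and 78.5 ± 37.5 CPM in p52Ki (edgeR adjusted p = 0.115), and Irak1 and Tab1 had log2 fold changes of 0.72 and 0.62 (edgeR adjusted p = 0.239 and 0.232).

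Of 10 inhibitors of the pathway, 9 were tested, 1 rose and 0 fell (edgeR, 0 lower also at an unadjusted p under 0.05 and by DESeq2). Their median log2 fold change was 0.17, and edgeR called 8.53% of all genes tested. Irak3 encodes IRAK-M, which restrains the MyD88 complex. It had 0, 1.25, 0 and 3.58 CPM in the WT libraries and 13.6 to 40.8 CPM in p52Ki, a 19.5-fold rise of the mean (log2 fold change 4.26 ± 1.06, edgeR adjusted p = 0.0295). The WT counts were 0, 9, 0 and 27, so this fold rests on few counts. Irak3 passed the filter on low counts only with the p52Ki libraries, so its p-values carry that selection. Without WT replicate 4 the log2 fold change was 5.78. The call ended without WT replicate 2 (adjusted p = 0.0644), p52Ki replicate 1 (0.0550), p52Ki replicate 3 (0.0660) or p52Ki replicate 5 (0.0786). Irak3, Tlr2 and the macrophage and monocyte genes Lyz2 and Ly6c2 all lay above WT in all 5 p52Ki libraries, as did 7.30% of all genes tested. They were set side by side with their values seen. Csf1r, Adgre1, Cd68, C1qa, C1qb and C1qc of the same marker list did not (log2 fold changes from -0.39 to 0.28). Itgam, Mertk and Fcgr1 of that list, not tested by edgeR, had 0 counts in WT. In p52Ki they had 27, 71 and 14 counts in total, found in 4, 3 and 1 libraries. The part of such cells in the values of Irak3 and Tlr2 was not tested. Cyld, Tnfaip3 and Lyn, which also restrain signalling, did not pass, at log2 fold changes of -0.33, 0.33 and 0.25 (edgeR adjusted p = 0.342, 0.511 and 0.517).

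**Figure D4:**
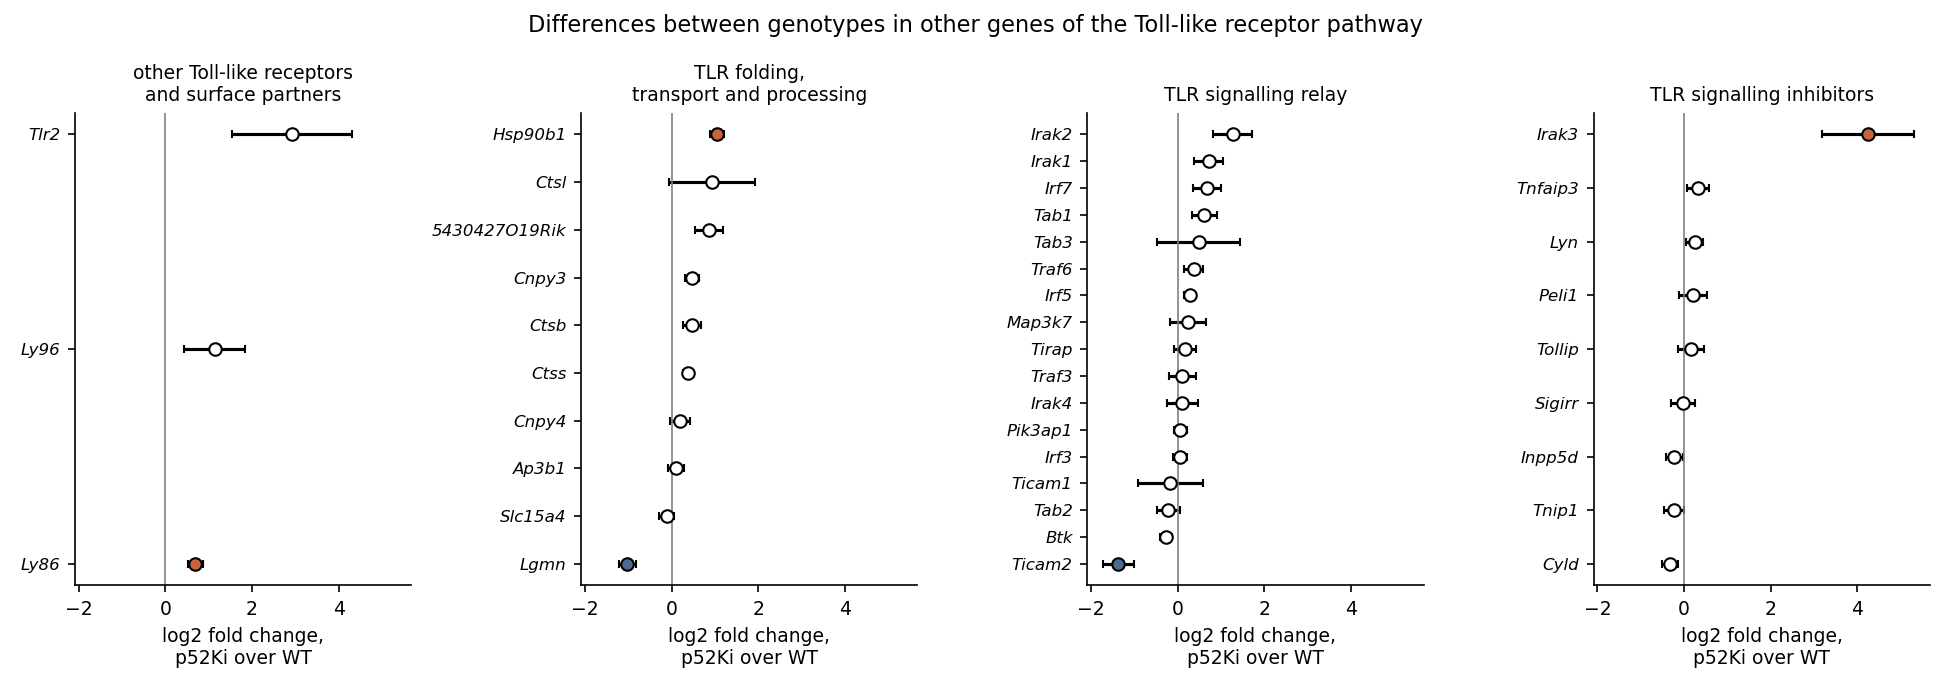
Log2 fold change of p52Ki over WT (x axis) with its SE for the tested genes of 4 pathway lists, filled orange where higher and blue where lower in p52Ki past the threshold. Hsp90b1, Ly86 and Irak3 are filled orange, Lgmn and Ticam2 blue, and most relay genes lie close to 0.

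The genes whose pattern over the 9 libraries lay closest to the called members were found by the root mean square difference of centred log2 CPM. For Unc93b1 these were the MHC class I genes H2-D1 (0.10) and H2-K1 (0.12) and Ncf1 (0.14), a subunit of the phagocyte NADPH oxidase. The measure takes in the genotype difference, so genes close to Unc93b1 are higher in p52Ki by the way they were picked. Their p-values carry that selection and are left out. Mean levels of H2-D1 were 1952 ± 106 (WT) and 3603 ± 150.5 CPM (p52Ki). H2-K1 is a related gene whose reads can be shared with H2-D1. For Tlr12 they included Zfp72 (0.40) and Ppm1e (0.55), which also had 0 counts in all WT libraries, so their likeness rests on that shared floor.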

How the data were processed

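RNA of 9 libraries (4 WT, 5 p52Ki) was amplified as full-length cDNA by SMART-Seq v2 and cut with Nextera XT, per the labels' protocols, a method that marks neither strand nor molecule. The tools listed in the submitters' processing notes are featureCounts (Subread 1.6.2), SAMtools 1.8 and HISAT2 2.1.0, with the build GRCm38. The authors deposited raw counts per gene, without normalization, and log2 CPM values of 12849 genes. Those deposited log2 values equalled the log2 CPM that edgeR gives from the counts with TMM and a prior count of 2 (largest difference 4.97e-14).

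Differences were tested on the deposited counts with edgeR 4.0.16 in R 4.3.3 (filterByExpr, TMM, robust quasi-likelihood F test on genotype, two-sided), with Benjamini-Hochberg adjustment over the 12849 genes tested and a threshold of 0.05. The SE was taken as the size of the log2 fold change divided by the root of its F value. CPM use TMM-scaled library sizes, in which 1 count was worth 0.131 to 0.217 CPM, and per-kilobase levels use merged exons of GENCODE M21 on GRCm38, which held 55450 of 55536 identifiers. Alternatives were DESeq2 1.42.0, limma 3.58.1 (voom and trend), other scalings and filters, a GC and length offset, the replicate number as a block, and each library left out. The test was checked on simulated data. The members and lists were chosen with earlier results of these data known. The genes named were all members, every called gene of the pathway lists with up to 3 others per list of smallest p, and the 3 genes closest in pattern to each called member, of which 1 is not reported here. Overlapping genes, Tlr5, Tlr8, Tlr11, Tlr13, Lbp, Cd14 and the markers were named outside that rule, with their values seen.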

Additional observations from a re-analysis of the deposited data

Results flagged for a closer look

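In 4 of 51 groups of 4 or 5 libraries, 1 library stood far from the others by Dixon's test, which chance alone gives in about 1 of 20 groups. None was a member. Tlr2 was at 6.92 CPM in WT replicate 2 and at 0 in the other WT libraries. Cnpy3 was at 89.9 CPM in WT replicate 4, where the others lay at 79.7 to 79.8 CPM, and at 141 CPM in p52Ki replicate 2, where the next was at 114 CPM. Tab1 was at 78.4 CPM in p52Ki replicate 5, where the next was at 50.3 CPM.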

How the results depend on the processing

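Unc93b1 kept its direction and call under all 17 alternatives run, with log2 fold changes from 0.73 to 0.88, and Tlr12 under all but the replicate block. Replicate numbers 1 to 4 occur in both genotypes, but same-numbered libraries did not deviate together (correlations from -0.04 to -0.01, and no WT library correlated best with its own number). With the number as a replicate block, 129 genes were called, of which 1 member (Unc93b1), and 0, 1, 0 and 0 genes of the surface partner, folding, relay and inhibitor lists. Of the folding genes Hsp90b1 was called and Lgmn was not (adjusted p = 0.0942). Tlr12 then had a fitted log2 fold change of 9.18, which depends on the prior count, and an adjusted p of 0.0799. DESeq2 called 2042 genes (13.6%) and 4 members, with Cd180 at 0.63 and Myd88 at -0.44, and 5 folding and 2 relay genes. With the GC and length offset, which called 11.3% of genes, Myd88 was at -0.59 and called, and 0 surface partners were called. limma-voom (1113 of 12849 genes called) and limma-trend (1409 of 12849) each called 2 surface partners. Without a filter 956 of 21491 genes and 0 relay genes were called. Without 1 library in turn, 625 to 1108 genes and 2 to 3 members were called, with 0 to 1 surface partners, 2 folding genes, 0 to 1 relay genes and 0 to 1 inhibitors. In these fits Tlr6 ran from -0.62 to 0.89 and Cd180 from 0.48 to 0.82. With the longest transcript as gene length, 7 of 10 members kept their rank in WT and 10 in p52Ki. At least 10 CPM in 4 libraries left Tlr3 untested. A floor of 3 counts was 0.394 to 0.652 CPM per library, and the spread of Tlr6 in WT (4, 106, 116 and 1 counts) was far wider than that.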

Other observations

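Marginal zone B cells are known for strong responses through TLRs. Of 7 marginal zone B cell markers 2 rose and 0 fell (edgeR), against 4.49% higher and 4.04% lower of all genes tested. At an unadjusted p under 0.05, 2 were higher and 0 lower, against 10.8% and 10.6% of genes tested. DESeq2 also called 2 higher and 0 lower, where it called 8.20% and 5.43% of genes. Cd1d1, which presents lipids, was at 0, 17.7, 6.26 and 13.5 CPM in WT and at 57.3 to 111 CPM in p52Ki, and the receptor gene Notch2 was at 11.4 to 24.9 and 42.1 to 92.9 CPM. Cr2, the complement receptor of these cells, was at 135 to 279 and 158 to 281 CPM (edgeR adjusted p = 0.982). Dtx1, S1pr3, Cd9 and Myof were not called either (log2 fold changes 0.08, -0.10, 0.78 and 0.60, edgeR adjusted p from 0.496 to 0.943), so the list did not move as one.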
